A study of Mus musculus with 2 samples.

Results

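The matrix metalloproteinases (MMP), the ADAM and ADAMTS metalloproteinases, the ADAMTS-like proteins (ADAMTSL), the tissue inhibitors of metalloproteinases (TIMP) and the urokinase pair Plau and Plaur were examined in prostate tumour RNA. Members were taken by gene symbol, a rule set with earlier results of these data known, and they were 85 of the 27376 rows of the count table. They comprised 23 MMP, 32 ADAM, 19 ADAMTS, 5 ADAMTSL and 4 TIMP genes beside the urokinase pair. Of these, 58 reached a mean of 1 CPM (read counts scaled to a common library size) over the libraries, 13 had reads below that level, and 14 had no read in either library. Just above the minimum lay Adam11, with a mean of 1.05 CPM, and just below it Adam5, with 0.760 CPM.

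The samples were fresh prostate tumours of mice aged 16 months, with 1 RNA sequencing library for each of 2 genotypes, and the number of animals behind a library is not given in the labels. The genotypes are named Bcat_Only and Met_Bcat, so Bcat, for beta-catenin, is common to both names. The column heading of the Bcat_Only library also carries ex3Plus and PB_Cre. PB-Cre commonly denotes Cre recombinase driven by the probasin promoter of prostate epithelium. The heading of the Met_Bcat library names no allele, so its MET allele and its Cre driver are not known from these sources. The libraries held 19301062 and 20117724 reads assigned to genes, in that order, and every pair of values below gives Bcat_Only first unless the library is named. A single library per genotype allows neither a replicate check nor a test, and each 95% interval (exact, Clopper-Pearson) covers counting error only.

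MMPs are secreted or membrane-bound zinc enzymes that are made as inactive precursors, and together they can cut most components of the extracellular matrix. ADAMs are membrane-anchored relatives, several of which release growth factors and receptor domains from the cell surface, and ADAMTS enzymes are secreted relatives that process procollagens, proteoglycans and microfibril proteins. TIMPs block these enzymes by binding the active site, and urokinase starts a separate route by turning plasminogen into plasmin. In glandular tumours fibroblasts, infiltrating leukocytes and the epithelium each contribute some of these enzymes.

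Most members that were measurable had fewer reads in the Met_Bcat tumour, while the most abundant one, Mmp7, differed by less than 2-fold. After TMM scaling of library sizes, a member with a mean of 1 CPM or more was called if its whole interval lay beyond a 2-fold difference. By this rule 27 of 58 members (46.6%) were lower in Met_Bcat, against 14.6% of all 14354 rows at that level, and 3 (5.17%) were higher, against 4.42%. These shares of all rows apply to each count of calls by this rule below. At a 4-fold end 20 members were lower, where 7.57% of all rows were, and 0 were higher, where 1.75% were. The median log2 ratio of Met_Bcat to Bcat_Only over the 58 members, with 0.5 CPM added, was −1.14 (quartiles −2.65 and −0.35), beside 0.03 over all rows. Over the 36 members that overlap no other row it was −1.85. Over the 58 members without the added 0.5 CPM, and with the 1 member at 0 reads set to a floor of 3 reads, it was −1.19. Since 8 of the lower members were under 1 CPM in Met_Bcat and 1 of the higher ones under 1 CPM in Bcat_Only, these 9 met the minimum only through the library in which they were high. Of the 30 called members 6 overlap another row of the table (Adam8, Adam12, Adamts2, Mmp19, Timp1 and Timp4), so their reads may include some of that row. Closest to the 2-fold limit lay Timp4, called with a near end of 2.03, and Mmp14, not called with 1.99.

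**Figure D1:**
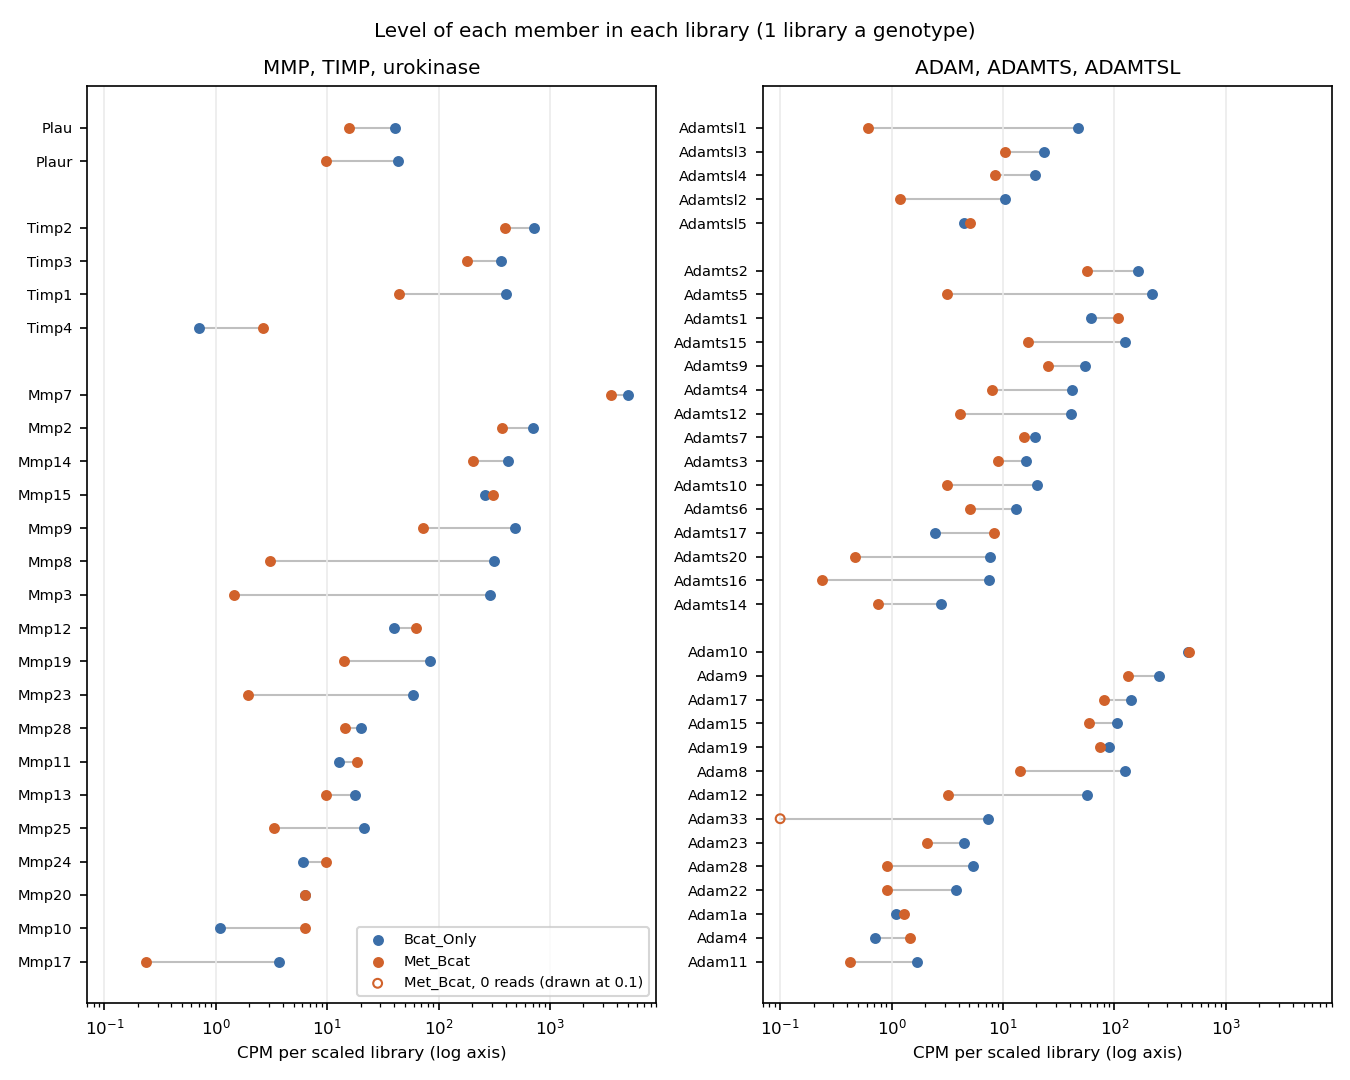
Level of each of the 58 members that reached the minimum, as CPM of the scaled library on a log axis, with 1 point for each library (blue, Bcat_Only; orange, Met_Bcat) and no error bars because there is 1 library a genotype. The left panel holds MMP, TIMP and urokinase genes and the right panel ADAM, ADAMTS and ADAMTSL genes. Mmp7, in the left panel, lies farthest right in both libraries, at 5023 and 3523 CPM. The longest gaps belong to members with little or no signal in Met_Bcat, such as Mmp3, Mmp8, Adamts5, Adamtsl1 and Adam33.

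The marker genes of several cell types moved with these members. All 9 fibroblast markers were measured, and their summed level was 23132 CPM in Bcat_Only and 967 CPM in Met_Bcat, with 8 lower by the same rule. Most of the Bcat_Only sum was collagen RNA, with Col3a1 at 10493, Col1a1 at 6130 and Col1a2 at 4166 CPM. Single fibroblast markers ranged from 2.11-fold lower for Pdgfrb and 2.14-fold for Thy1 to 84.3-fold for Col1a2. Summed neutrophil markers stood at 7131 and 775 CPM, with 8 of 8 lower and Elane at 0 reads in Met_Bcat. Ltf alone held 2574 and 651 CPM of these sums. Summed macrophage markers stood at 1497 and 284 CPM, with 7 of 7 lower. Smooth muscle markers, at 548 and 46.0 CPM, were lower in 6 of 6 genes, and endothelial markers, at 442 and 220 CPM, in 5 of 6. In the other direction, the 10 luminal epithelial markers summed to 3404 and 5761 CPM, with 4 higher and 1 lower, and the 6 basal and squamous markers to 369 and 1243 CPM, with 5 higher and 1 lower. Defining genes of prostate epithelium were read in both libraries, Hoxb13 with 496 and 3229 reads and Pbsn, the probasin gene, with 194 and 410. The 5 seminal vesicle secretory genes summed to 6826 CPM in Bcat_Only and 4.74 CPM in Met_Bcat, where Svs6 was at 0 reads. The part of these cell types and tissues in the members' differences was not tested, and fewer cells of a type cannot be told apart from less RNA per cell. Neither Met (169 and 166 CPM) nor Ctnnb1 (981 and 974 CPM), the genes of the genotype names, differed by much at the level of total reads. The MET allele is not named, so whether the mouse Met row counts its reads is not known.

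**Figure D2:**
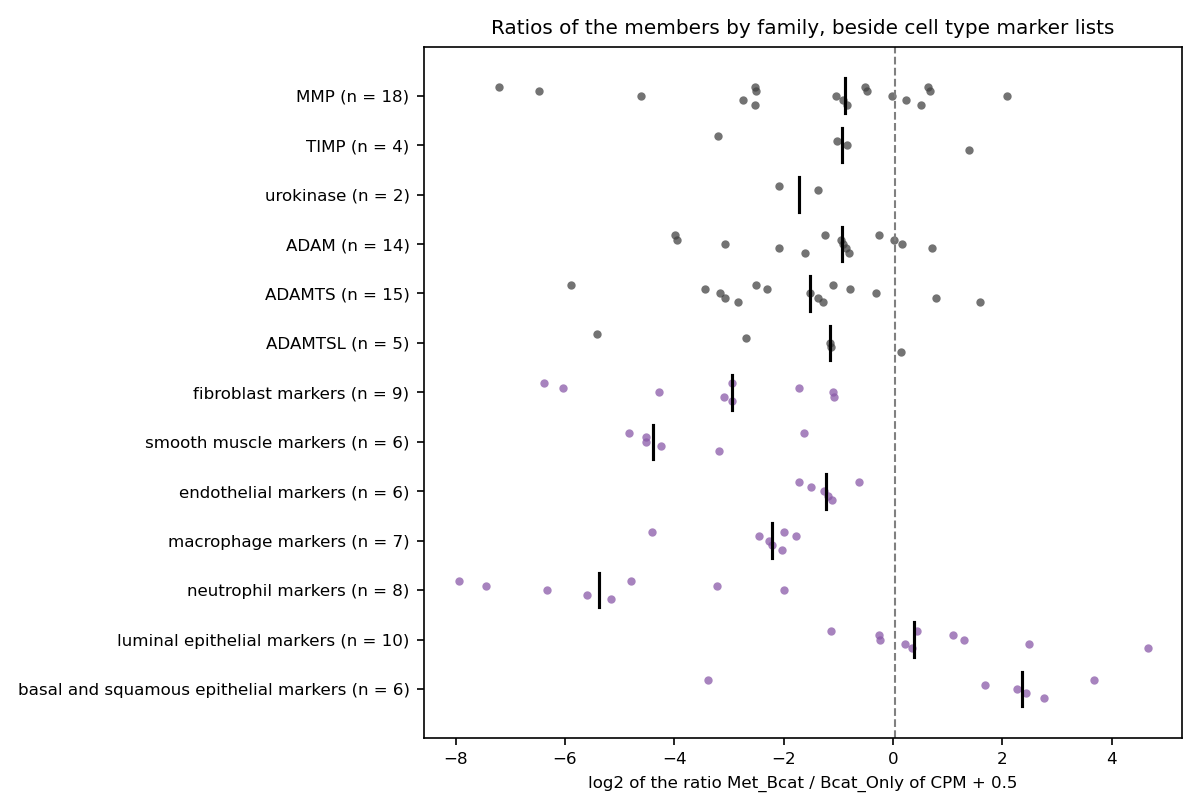
Log2 ratio of Met_Bcat to Bcat_Only of CPM plus 0.5, with 1 point for each gene that reached 1 CPM on average; grey points are the members by family, purple points are the genes of cell type marker lists, black bars are medians and the dashed line is the median of all rows, 0.03. The family medians lie between −0.88 and −1.73, between the fibroblast median of −2.94 and the luminal median of 0.39.

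The MMP genes of chromosome 9 lie side by side, and neighbours among them differed in opposite directions. This cluster holds 10 MMP genes over 427 kb (mm9 chromosome 9, 7272514 to 7699585), and its order is Mmp13, Mmp12, Mmp1b, Mmp3, Mmp1a, Mmp10, Mmp8, Mmp27, Mmp20 and Mmp7. The promoters of 4 of them are shown because they carry the contrast: Mmp3 and Mmp8 were far lower in Met_Bcat, Mmp10 was higher and Mmp7 was abundant in both. Each window runs from 250 bases before to 50 bases after the most upstream RefSeq start and is given on build GRCm38.p6, which is not the build of the counts. Capitals mark the AP-1 motif TGAGTCA and the TATA motif TATAAA, searched on both strands, which do not overlap one another in these windows.
Mmp3, chr9:7445572-7445871, plus strand: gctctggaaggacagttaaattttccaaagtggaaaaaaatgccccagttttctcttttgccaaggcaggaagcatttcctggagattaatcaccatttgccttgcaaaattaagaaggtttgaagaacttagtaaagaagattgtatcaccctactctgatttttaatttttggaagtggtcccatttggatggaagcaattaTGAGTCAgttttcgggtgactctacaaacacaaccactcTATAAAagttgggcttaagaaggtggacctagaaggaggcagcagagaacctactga
Mmp10, chr9:7502092-7502391, plus strand: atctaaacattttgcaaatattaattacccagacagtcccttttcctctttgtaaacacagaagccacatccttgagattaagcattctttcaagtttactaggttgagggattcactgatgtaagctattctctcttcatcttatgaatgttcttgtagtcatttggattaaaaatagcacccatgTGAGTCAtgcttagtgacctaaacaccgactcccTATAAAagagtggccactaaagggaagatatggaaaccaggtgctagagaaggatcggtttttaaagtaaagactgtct
Mmp7, chr9:7691840-7692139, plus strand: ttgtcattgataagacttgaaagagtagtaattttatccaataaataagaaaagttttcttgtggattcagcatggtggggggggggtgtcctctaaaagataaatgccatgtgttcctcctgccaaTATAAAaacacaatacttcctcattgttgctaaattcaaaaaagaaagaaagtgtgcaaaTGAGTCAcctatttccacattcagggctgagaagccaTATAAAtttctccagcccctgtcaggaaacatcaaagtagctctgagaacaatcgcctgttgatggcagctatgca
Mmp8, chr9:7558179-7558478, plus strand: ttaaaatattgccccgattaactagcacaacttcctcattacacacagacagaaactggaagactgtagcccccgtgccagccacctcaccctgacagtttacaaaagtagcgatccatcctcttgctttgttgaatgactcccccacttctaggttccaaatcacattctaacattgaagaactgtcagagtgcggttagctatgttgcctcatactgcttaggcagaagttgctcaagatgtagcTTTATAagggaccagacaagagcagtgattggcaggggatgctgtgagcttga

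The AP-1 letters lie 46 bases before the start of Mmp3, 63 before that of Mmp10 and 63 before that of Mmp7, and the window of Mmp8 does not hold them. Over the cluster, 7 of 10 genes have them in at least 1 window, while 5.2% of all 32851 RefSeq windows of this length do. The first is a count of genes, which can have more than 1 window, and the second a share of single windows. Mmp12 counts through its window at 7347124 and not through that at 7344147. Among the 45 other symbols that fit the rule and have a window there were 4, Adam19, Adam1b, Adam29 and Plaur. These 45 include Adam20 and Adam34l, which are not rows of the count table. A TATA motif stands in 13.6% of all windows. The TCF/LEF motif CTTTGAT was searched on both strands together with its variant CTTTGTT and its variant CTTTGAA, and at least 1 of these 3 is in 13.9% of windows. The Mmp7 window holds CTTTGAT on the minus strand 4 bases after the start, the Mmp8 window holds the first variant 124 bases before it, and the more upstream of the Mmp12 windows holds that variant on the minus strand. The AP-1 letters were present at genes that were lower, higher and little different in Met_Bcat. A match of letters is not evidence of binding, and no binding was measured.

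Mmp3 encodes stromelysin-1, which cuts proteoglycans and laminin and activates other MMPs (mm9 chromosome 9, 7445822 to 7455972). Its reads numbered 5381 (292 CPM) in Bcat_Only against 31 (1.47 CPM) in Met_Bcat. This is 199-fold lower (140 to 293), the largest fold among members with a read in both libraries. Mmp8, the neutrophil collagenase (7558429 to 7568486), had 5806 and 64 reads, or 315 and 3.04 CPM, and was 104-fold lower (81.1 to 135). Mmp8 protein is stored in granules of maturing neutrophils. The 8 neutrophil markers were 9.20-fold lower in summed level, but Ltf alone held 651 of the 775 summed CPM in Met_Bcat. Their median log2 ratio was −5.37. Single markers ranged from 3.96-fold lower for Ltf and 9.74-fold for Csf3r to 28.0-fold for S100a8 and 296-fold for Ngp among those named. Mmp27, a little-studied gene just beyond Mmp8, had 13 reads and 0.

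Between these, Mmp10 encodes stromelysin-2, a close relative of stromelysin-1 that epithelial cells can make (7502352 to 7510238). Bcat_Only held 20 of its reads (1.09 CPM) against 132 (6.26 CPM) for Met_Bcat, which is 5.77-fold higher (3.59 to 9.75). Mmp10 was thus at a low level in both tumours, and in Met_Bcat its level exceeded that of Mmp3, whereas in Bcat_Only Mmp3 had the more reads by far. The genes are of similar exon length in the table, 1798 bases for Mmp3 and 1720 for Mmp10, and per kilobase they stood at 162 and 0.631 CPM in Bcat_Only and at 0.818 and 3.64 CPM in Met_Bcat.

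The outer genes of the cluster differed less. Mmp12, the macrophage elastase, had 726 and 1331 reads, or 39.4 and 63.2 CPM, a 1.60-fold higher level (1.46 to 1.76) that is under the 2-fold rule. All 7 macrophage markers were lower in the same libraries, so the level of Mmp12 and that of the macrophage list went in opposite directions. Mmp12 overlaps Mmp1b on the other strand, and Mmp1b had 1 read and 0. Mmp13, collagenase-3, the main interstitial collagenase of rodents, had 330 and 206 reads, 1.83-fold lower (1.54 to 2.19). Mmp20, which encodes the enamel protease enamelysin, was read at nearly the same low level, with 117 and 133 reads or 6.35 and 6.31 CPM.

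Mmp7 encodes matrilysin, a small MMP without the hemopexin domain that glandular epithelium secretes, and it is a known beta-catenin target in intestinal tumours (7692086 to 7699585). Its 92533 and 74245 reads correspond to 5023 and 3523 CPM, and it was 1.43-fold lower (1.41 to 1.44). Among all rows of the table it ranked at place 9 by reads in Bcat_Only and at place 8 in Met_Bcat. It took 43.7% of all reads on the 85 members in Bcat_Only and 54.9% in Met_Bcat. Mmp7 alone held 0.479% of all assigned reads in Bcat_Only (0.476% to 0.483%) and 0.369% in Met_Bcat (0.366% to 0.372%). The row AV064505 overlaps it on the other strand and had 22 and 19 reads, and the effect of the overlap on the count of Mmp7 was not tested.

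**Figure D3:**
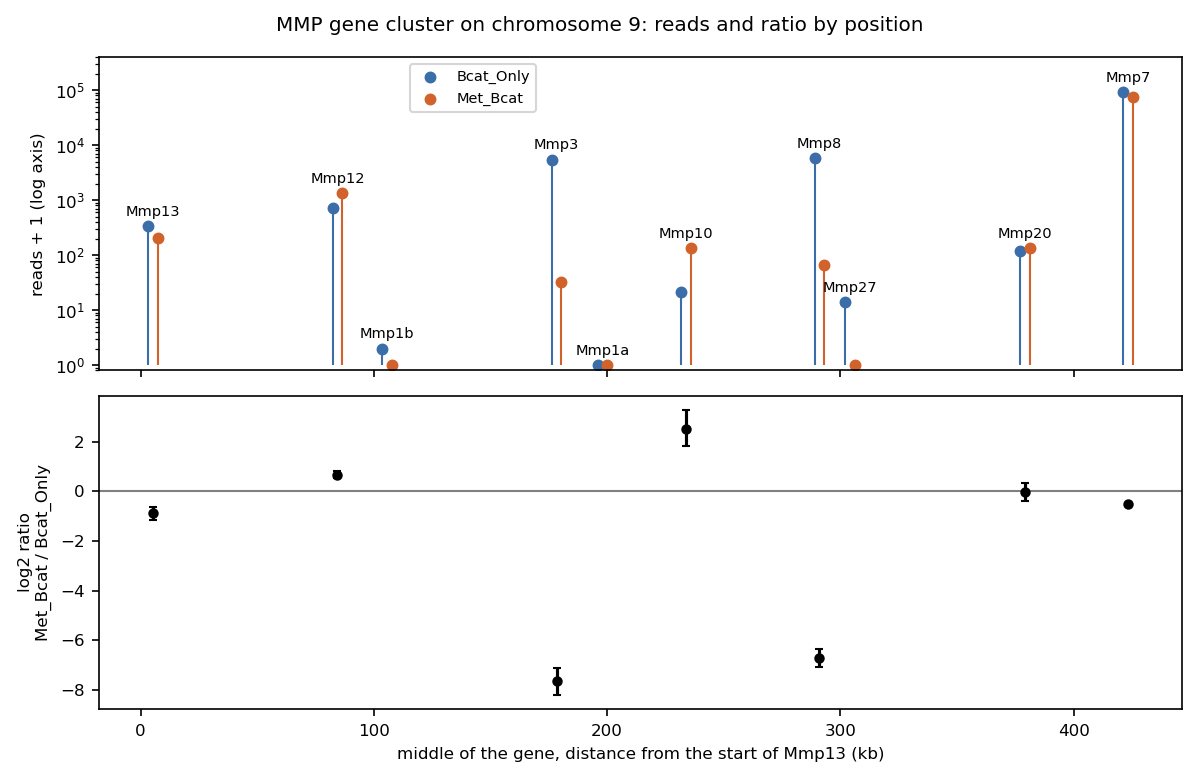
The 10 MMP genes of the chromosome 9 cluster by distance from the start of Mmp13 in kb: the upper panel gives reads plus 1 in each library on a log axis (blue, Bcat_Only; orange, Met_Bcat) and the lower panel the log2 ratio with its 95% counting interval for the 7 genes that reached the minimum. Mmp3 (−7.63) and Mmp8 (−6.70) lie far below 0 and Mmp10, between them, at 2.53.

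Outside the cluster, 11 of 13 MMP genes were measurable. Of these, 5 (45.5%) were lower by the rule and 0 higher, against 14.6% and 4.42% of all rows. Mmp2, the gelatinase of fibroblasts, had 12991 and 7880 reads, or 705 and 374 CPM, 1.89-fold lower (1.83 to 1.94). Mmp9, the other gelatinase, which neutrophils and macrophages carry, had 8891 and 1517 reads, or 483 and 72.0 CPM, 6.70-fold lower (6.35 to 7.08; mm9 chromosome 2, 164766280 to 164781350). Of the gelatinases Mmp9 thus differed more, and the interval of Mmp2 lies wholly under 2-fold. Mmp19, a basement membrane protease, had 1553 and 299 reads and was 5.94-fold lower (5.25 to 6.75). Mmp23, a membrane-held enzyme without the usual hemopexin domain, had 1092 and 41 reads and was 30.5-fold lower (22.3 to 42.7).

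The membrane-type MMPs went several ways. Mmp14, which activates the precursor of MMP2 at the cell surface, had 7773 and 4312 reads, or 422 and 205 CPM, 2.06-fold lower (1.99 to 2.14). Mmp15, its closest relative, had 4784 and 6481 reads, or 260 and 308 CPM, a ratio of 1.18 (1.14 to 1.23) that turned below 1 when libraries were scaled to the luminal markers. The glycolipid-anchored enzymes Mmp25, known from neutrophils, and Mmp17 had 396 and 70 reads and 68 and 5 reads. They were 6.47-fold (5.01 to 8.47) and 15.6-fold lower (6.35 to 49.4). Mmp24 had 111 and 205 reads (1.61-fold higher, 1.28 to 2.05), and Mmp16 7 and 15 reads, below the minimum. Mmp11, stromelysin-3, which furin activates inside the cell, had 237 and 393 reads (1.45-fold higher, 1.23 to 1.71), and Mmp28, epilysin of epithelia, 374 and 306. Neither Mmp1a, one of the mouse counterparts of human collagenase-1, nor Mmp21 had a read.

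Of the 4 inhibitors, Timp1 differed most. Timp1, an inducible inhibitor that acts poorly on membrane-type MMPs (mm9 chromosome X, 20447292 to 20451861), had 7486 and 923 reads, or 406 and 43.8 CPM, 9.28-fold lower (8.66 to 9.95). Timp2, which takes part in the activation of MMP2 by MMP14, had 13149 and 8405 reads, 1.79-fold lower (1.74 to 1.84). Timp3, which is held in the matrix and also blocks ADAM17 and the aggrecanases, had 6738 and 3806 reads, 2.03-fold lower (1.95 to 2.11) and just short of the rule. Timp4, a restricted inhibitor best known from heart, went from 13 to 56 reads, 3.77-fold higher (2.03 to 7.51), and was no longer called when libraries were scaled to the luminal markers. Each of Timp1, Timp3 and Timp4 lies within the span of a synapsin gene on the other strand, and reads of overlapping genes cannot be assigned with certainty. Syn1 had 99 and 26 reads and Syn3 28 and 31, few beside those of Timp1 and Timp3. Syn2 had 93 and 25 reads, more than Timp4 itself in Bcat_Only, so the call of Timp4 is uncertain.

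Levels of different genes were compared per kilobase of the deposited exon length, as CPM per kb. By this measure Mmp7 came first among the members in both libraries, with 4685 CPM per kb in Bcat_Only and 3286 in Met_Bcat. In Bcat_Only it was followed by Timp1 (458), Mmp2 (232), Timp2 (183), Mmp14 (162) and Mmp3 (162). In Met_Bcat Mmp2 (123), Timp2 (102), Adam10, Mmp14 (78.8) and Mmp15 (70.7) came next, and Timp1 (49.3) was at place 7. Mmp3 went from place 6 to place 41 of 58 and Mmp8 from place 8 to place 34, while Mmp12 went from place 30 to place 15 and Adamts1 from place 24 to place 10. Summed over families, MMP genes stood at 5651 and 3618 CPM per kb and TIMP genes at 686 and 176, which are 8.24 and 20.6 units of MMP for each unit of TIMP. Without Mmp7 the MMP sum was 966 and 332, or 1.41 and 1.89 for each unit of TIMP. These are ratios of RNA levels and say nothing of active enzyme.

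**Figure D4:**
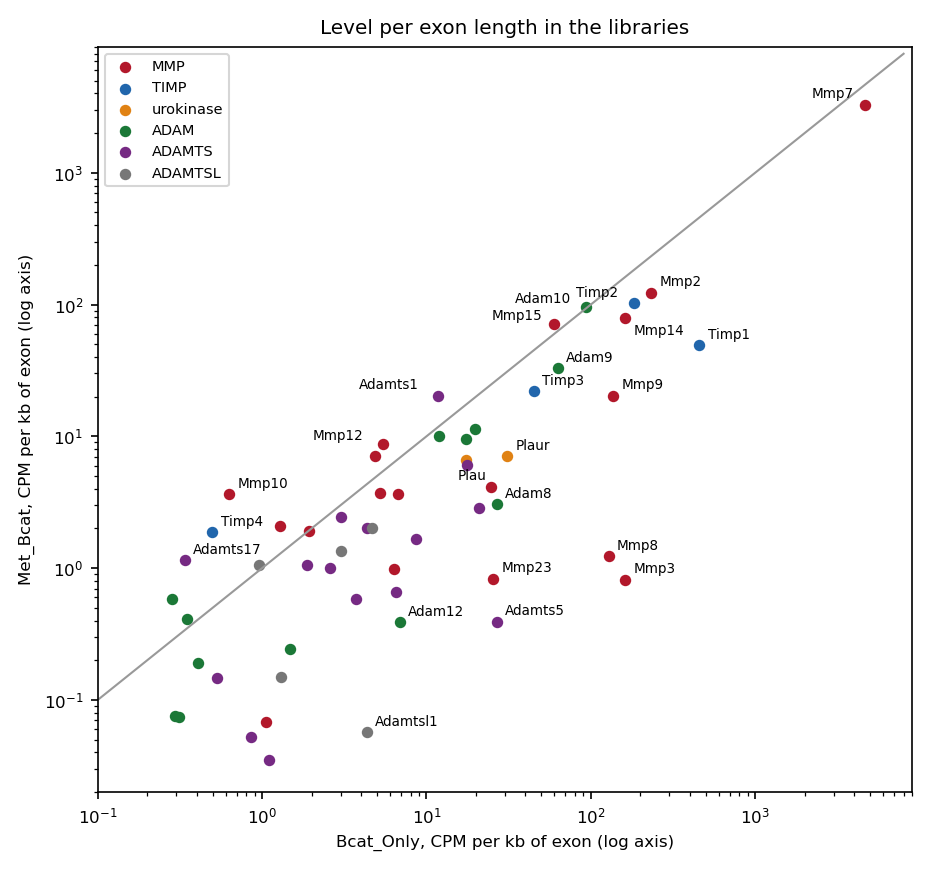
Level of the members that reached the minimum and had a read in both libraries, as CPM per kb of exon in Bcat_Only (x, log axis) and Met_Bcat (y, log axis), coloured by family, with the line of equal level. Mmp7 stands alone at the top right, most members lie below the line, and Mmp10, Timp4 and Adamts17 lie above it; Adam33, with 0 reads in Met_Bcat, is not drawn.

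In the ADAM family 14 of 32 genes were measurable, of which 5 (35.7%) were lower and 0 higher, against 14.6% and 4.42% of all rows. All 9 proteinase-type ADAMs were measurable, with 4 lower and 0 higher, and 12 of the 20 germ cell and epididymis ADAMs had no read. Adam10, the main protease that cuts Notch and E-cadherin at the surface, had 8495 and 9869 reads, or 461 and 468 CPM, a ratio of 1.02 (0.986 to 1.05). Scaling to the luminal markers turned its log2 ratio from 0.02 to −0.37. Adam17, which releases TNF and several ligands of the EGF receptor, had 2617 and 1719 reads, 1.74-fold lower (1.64 to 1.85). Adam9 had 4647 and 2801 reads (1.90-fold lower, 1.81 to 1.99) and Adam15 1964 and 1238 (1.81-fold lower, 1.69 to 1.95). Adam19 had 1645 and 1577 reads, 1.19-fold lower (1.11 to 1.28). Each of these 5 genes differed by less than 2-fold between the libraries.

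The remaining 4 proteinase ADAMs are those that passed the rule. Adam8, which myeloid cells express, had 2285 and 300 reads, or 124 and 14.2 CPM, 8.71-fold lower (7.72 to 9.86). Adam12, known from mesenchyme and regenerating muscle, had 1048 and 68 reads, 17.6-fold lower (13.8 to 22.9). Adam33, known from airway fibroblasts and smooth muscle (mm9 chromosome 2, 130876327 to 130889550), had 136 reads and 0. Set against a floor of 3 reads it was 51.9-fold lower, which is not a lower bound. The near end of its exact interval, by which it was called, was 41.6-fold. Adam28, of lymphocytes and epididymis, had 100 and 19 reads, 6.02-fold lower (3.66 to 10.4).

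The catalytically inactive ADAMs of the nervous system, which bind LGI proteins, were read at a low level. Adam22 had 70 and 19 reads, 4.21-fold lower (2.51 to 7.41). Adam23 had 83 and 44 and Adam11 31 and 9. Among Schwann cell and nerve markers, S100b had 42 and 11 reads, whereas Mbp had 2349 and 2098, and 2 of the 4 measurable ones were lower. In the germ cell and epididymis group Adam1a (20 and 27 reads), Adam4 (13 and 31) and Adam5 (21 and 8) had the most reads. Adam1a overlaps Mapkapk5 and Adam4 overlaps Cox16 on the same strand. The protamine and transition protein genes Prm1, Prm2, Tnp1 and Tnp2, which define sperm cells, were at 0 in both libraries, and so were Lcn5 and Lcn8 of the epididymis. The other listed germ cell genes had few reads, Zpbp 8 and 6, Acrv1 1 and 7 and Ddx4 1 and 0. The other listed epididymis genes were read in Bcat_Only alone, Rnase10 with 7 and 0 reads and Crisp1 with 3 and 0.

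The proteins that ADAMs release and the factors that control them were listed separately. Of 12 genes for shed ligands and receptors 11 were measurable, with a median log2 ratio of −0.25. Of these, 2 (18.2%) were higher and 1 (9.09%) lower, against 4.42% and 14.6% of all rows. Areg, for the EGF receptor ligand amphiregulin, had 20 and 324 reads, 14.2-fold higher (9.02 to 23.5). Egf had 30 and 417 reads, 12.2-fold higher (8.38 to 18.2), and Cd44 had 17668 and 9564. Hbegf, a further ADAM17 substrate, had 292 and 319 reads, a ratio of 0.955. The iRhom genes, which bring ADAM17 to the surface, had 1282 and 2278 reads for Rhbdf1 (1.55-fold higher, 1.45 to 1.66) and 934 and 559 for Rhbdf2 (1.91-fold lower). Tspan15, a partner of ADAM10, had 618 and 393 reads, and the convertase Furin, which trims the precursors of ADAMs and membrane-type MMPs, 4756 and 3872.

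Among families of more than 2 genes ADAMTS had the highest share of lower members, 10 of 15 (66.7%, against 14.6% of all rows). In this family 1 member (6.67%) was higher, against 4.42%. Adamts5, an aggrecanase that also cuts versican (mm9 chromosome 16, 85858415 to 85901370), had 3993 and 67 reads, or 217 and 3.18 CPM, 68.2-fold lower (53.6 to 88.1). Its neighbour Adamts1 (85794072 to 85803358), which cuts the same proteoglycans, had 1146 and 2275 reads, or 62.2 and 108 CPM, a 1.74-fold higher level (1.62 to 1.86). The intervals of these adjacent genes lie on opposite sides of no difference, as they do for the neighbours Mmp10 and Mmp8. Adamts15 had 2281 and 356 reads (7.33-fold lower, 6.55 to 8.22), and Adamts4, the other classical aggrecanase, 765 and 168 (5.21-fold lower, 4.40 to 6.19). Adamts20, known in mice from coat colour mutants, had 142 and 10 reads and was 16.2-fold lower (8.58 to 34.6). Adamts9 had 1008 and 536 reads, 2.15-fold lower with a near end of 1.94, and Adamts8 25 and 2.

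Of the 3 ADAMTS enzymes that trim fibrillar procollagens 2 were lower by the rule. Adamts2, the main procollagen N-proteinase, had 3028 and 1200 reads, 2.89-fold lower (2.70 to 3.09). Adamts14 had 51 and 16 reads (3.65-fold lower, 2.05 to 6.85, not called with scaling by total counts), and Adamts3 294 and 190 (1.77-fold lower, 1.47 to 2.14). Among the procollagen genes, Col1a1 was 19.5-fold, Col1a2 84.3-fold and Col3a1 65.8-fold lower. Of 9 listed ADAMTS substrate genes 7 were measurable, and 6 of these were lower and 0 higher. The lower ones include Col1a1, Col1a2 and Col3a1, which are also counted among the fibroblast markers. Versican, Vcan, had 5040 and 2237 reads, 2.58-fold lower (2.45 to 2.71), and fibrillin-1, Fbn1, 11767 and 1446, 9.31-fold lower (8.81 to 9.84).

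Of the remaining ADAMTS genes, Adamts17 stood apart in direction. Adamts17, linked to fibrillin microfibrils (mm9 chromosome 7, 73984621 to 74297511), had 45 and 176 reads, or 2.44 and 8.35 CPM, 3.42-fold higher (2.45 to 4.86), a call that ended with scaling to the luminal markers. Its relatives Adamts10 and Adamts6 had 375 and 67 reads and 239 and 106 reads, and they were 6.40-fold (4.93 to 8.43) and 2.58-fold lower (2.04 to 3.27), Adamts6 not being called with scaling by total counts. Adamts16, known from gonads and kidney, had 138 and 5 reads, 31.6-fold lower (13.2 to 98.8). Adamts12, which cuts the cartilage protein COMP, had 753 and 87 reads, 9.90-fold lower (7.92 to 12.5), and Adamts7, with the same substrate, 356 and 326. Comp itself had 77 and 4 reads. Adamts18 had 3 and 14 reads, Adamts19 5 and 9 and Adamts13, which cuts von Willebrand factor, 2 and 2.

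ADAMTS-like proteins resemble the ADAMTS family but have no protease domain. Adamtsl1 had 866 and 13 reads, or 47.0 and 0.617 CPM, 76.2-fold lower (44.3 to 144). Adamtsl2, which binds fibrillin-1, had 192 and 25 reads, 8.79-fold lower (5.77 to 13.9). Adamtsl3 (428 and 218 reads) and Adamtsl4 (361 and 179) were 2.25-fold and 2.31-fold lower, with near ends of 1.90 and 1.92. Adamtsl5 had 83 and 106 reads, a ratio of 1.12 (0.830 to 1.51) that includes no difference.

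Both genes of the urokinase system were lower. Plau, urokinase (mm9 chromosome 14, 21655884 to 21662610), had 755 and 329 reads, and Plaur, its surface receptor (chromosome 7, 25247519 to 25260892), 800 and 207. In CPM these are 41.0 and 15.6 for Plau and 43.4 and 9.82 for Plaur, so Plau was 2.63-fold lower (2.30 to 2.997) and Plaur 4.42-fold lower (3.79 to 5.18). Their inhibitor Serpinb2 had 89 and 9 reads, 11.3-fold lower (5.70 to 25.5). Serpine2, another inhibitor of urokinase, went the other way, with 2213 and 6807 reads, 2.69-fold higher (2.56 to 2.82). Plat, the tissue-type activator, had 7200 and 3413 reads, 2.41-fold lower (2.32 to 2.51), and the plasminogen gene Plg had no read.

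Over the 24 measurable of 28 protease regulators found, 8 (33.3%) were lower and 2 (8.33%) higher, against 14.6% and 4.42% of all rows. Their median log2 ratio was −0.82. Reck, a membrane-anchored inhibitor of MMPs, had 329 and 67 reads, 5.62-fold lower (4.31 to 7.42). A2m, the trap-type inhibitor alpha-2-macroglobulin, had 4596 and 851 reads, 6.18-fold lower (5.74 to 6.65), and Lrp1, the receptor that clears MMPs, TIMPs and urokinase complexes, 26335 and 7619, 3.95-fold lower (3.85 to 4.06). The second higher regulator beside Serpine2 was Spock2, a testican, with 359 and 1286 reads, 3.13-fold higher (2.78 to 3.53). Bsg, for the MMP inducer basigin, had 12573 and 12928 reads, a ratio of 0.899.

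As shares of all assigned reads, the 85 members held 1.10% in Bcat_Only (1.093% to 1.103%) and 0.673% in Met_Bcat (0.669% to 0.676%). The MMP share was 0.742% and 0.486%, the TIMP share 0.142% and 0.0656%, the ADAM share 0.120% and 0.0882%, and the ADAMTS share 0.0759% and 0.0279%. The ADAM share therefore differed least and that of the ADAMTSL genes, 0.0100% and 0.00269%, most of the families with more than 2 members.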

How the data were processed

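Total RNA of homogenised prostate tumour tissue (200 ng a sample) was made into stranded mRNA libraries with 10 PCR cycles and sequenced as single-end reads of 51 bases, per the labels' protocols. The authors deposited raw read counts per gene, which are whole numbers and not normalised, with mm9 coordinates and total exon length, per the file headers. Alignment with TopHat2 (version 2), counting with HTSeq, the package edgeR and build mm9 are listed, without order, per the submitters' processing notes. No source used here states the strand setting or the treatment of multiply mapped reads, so reads of overlapping or near-identical genes (Mmp1a and Mmp1b, Adam1a and Adam1b, Adam6a and Adam6b, Adam26a and Adam26b) cannot be assigned with certainty. Columns were matched to samples by the sample number in the heading.

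Library sizes were scaled with TMM factors of 0.955 (Bcat_Only) and 1.05 (Met_Bcat) from edgeR 4.0.16 in R 4.3.3. Ratios carry 95% Clopper-Pearson intervals conditional on the summed reads (scipy 1.17.1), which cover counting error only. PCR reads are not independent molecules, so the intervals may be too narrow even for counting error. For the fold of Adam33 and the median without added CPM, a count of 0 was set to a floor of 3 reads. This floor is 0.163 CPM in Bcat_Only and 0.142 in Met_Bcat. Levels, intervals and calls used the count of 0 itself. No p-value was computed. The procedure was tested on simulated data. All 85 identifiers were found in GENCODE M21 under the same symbols. RefSeq promoter windows (GRCm38.p6) were found for 55 symbols that fit the symbol rule. These include Adam20 and Adam34l, which are not rows of the count table, so fewer than 55 of the 85 members have a window. Named members are those past the size rule, the TIMP and urokinase genes, and the 2 members of each family with the highest level per length; further members were named by role after their values were seen. Members and lists were chosen with earlier results of these data known. Some genes of the marker and regulator lists are counted in them but not reported here by name.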

Additional observations from a re-analysis of the deposited data

How the results depend on the processing

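The counts and medians depended on the scaling and the minimum level as follows. The median log2 ratio of the members, −1.14 as reported, was −1.02 with total counts, −1.50 with scaling to the luminal markers, −0.95 with no minimum, −1.85 without members that overlap another row, −1.02 with a pseudocount of 2 CPM and −1.58 as a mean. Relative to TMM, total counts add 0.13 to each log2 ratio and luminal scaling takes off 0.39 (a shift of −0.39), and the median over all rows was then 0.16 and −0.35. The lower members, 27 of 58 beside 14.6% of all rows, were 39 of 57 with luminal scaling (19.5% of all rows), 29 of 71 with no minimum (12.2%), 18 of 39 with a minimum of 10 CPM (11.7%) and 20 of 58 at a 4-fold end (7.57%). The 3 higher members became 1 with luminal scaling, where Adamts17 and Timp4 were lost, 0 with a minimum of 10 CPM, by construction since each lies below it, and 0 at a 4-fold end. Without Mmp7 the members' share of reads was 0.619% in Bcat_Only and 0.303% in Met_Bcat. No called ratio changed sign under the 3 scalings; among the others Mmp20 did with total counts, and Adam10, Adam1a, Adamtsl5 and Mmp15 did with luminal scaling. No library could be left out, and no paired analysis was possible because each genotype has 1 library. Depth limits members under 1 CPM, 13 of which had reads.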

Other observations

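Other matrix proteases of the astacin, pappalysin and ADAM-related groups, none of which the symbol rule takes in, also went in both directions. Bmp1, the procollagen C-proteinase, had 4393 and 1689 reads (Bcat_Only first), 2.98-fold lower (95% interval 2.81 to 3.15). Pappa, which cuts IGF-binding proteins, had 511 and 137 reads, 4.27-fold lower (3.53 to 5.19), and its relative Pappa2 had 65 and 1, a ratio of 74.4-fold lower (12.9 to 2982). Adamdec1, a soluble ADAM relative, had 20 and 185 reads, 8.09-fold higher (5.09 to 13.5). Thsd4, also named ADAMTSL6, had 154 and 559 reads in the row that holds its reads, 3.17-fold higher (2.65 to 3.82). The meprin genes Mep1a and Mep1b had no read in either library. Of 7 measurable rows of this list 3 (42.9%) were lower and 2 (28.6%) higher in Met_Bcat, against 14.6% and 4.42% of all rows.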
